A study of Mus musculus with 4 samples.

Results

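The circadian clock genes *Per1*, *Per2*, *Per3*, *Cry1*, *Cry2*, *Arntl*, *Clock*, *Nr1d1*, *Dbp* and *Bhlhe40* were examined for histone 3 phosphorylated at serine 10 (H3S10ph) in mouse gastrocnemius, a calf muscle. These 10 genes were followed among 21938 protein-coding genes, and a peak was counted for a gene when it overlapped the annotated gene or the 5 kb on either side of it by at least 1 bp. Within these windows lay 37 peaks, of which 32 touched the gene itself. H3S10ph had been measured by ChIP-seq in 4 samples, each made from the pooled gastrocnemius muscles of 6 male C57BL/6 mice aged 5 months. The 2 stimulated samples came from muscles that had performed 50 eccentric contractions under anaesthesia and were taken immediately afterwards. Each contraction was evoked by a 600 ms tetanus at 100 Hz, with 30 s between contractions. The 2 unstimulated samples were contralateral muscles, and all mice were kept in light and dark cycles on standard chow and anaesthetised with xylazine and Zoletil. The muscle was used whole, so a mark in fewer nuclei and a weaker mark in every nucleus cannot be told apart.

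In the molecular clock, the factors made by *Arntl* (BMAL1) and *Clock* pair up and bind E-box sequences, where they switch on the *Per* and *Cry* genes. The PER and CRY proteins then return to the nucleus and repress that pair, which closes the loop over roughly a day. *Nr1d1* (REV-ERBα) represses *Arntl*, *Dbp* is a clock output gene whose protein binds D-box sequences, and *Bhlhe40* (DEC1) competes at E-boxes. *Per1* is also an immediate early gene, which signals such as cAMP switch on through the cAMP response element without waiting for the clock. Skeletal muscle runs its own clock, and contraction is one of the cues known to shift it. H3S10ph is a mark of condensed mitotic chromosomes and, in cells that do not divide, of genes being induced by kinases such as MSK1.

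The 4 peak lists differed in length in both conditions. The unstimulated lists held 9094 and 32740 peaks in replicates 1 and 2, and the stimulated lists held 10901 and 40683 peaks. Covered lengths were 4.84 and 17.3 Mb against 5.68 and 23.2 Mb. The number of reads behind each list is unknown, so a gene without a peak had no call, which does not show that it had no mark. All lists reached down to a −log10 p near 2, while the cutoff of 0.001 stated in the methods is a value of 3. Between 2.93% and 17.7% of the peaks of a list had a value of 3 or more. These are broad peaks, and whether the value given for a whole peak can be set against the calling cutoff is not known. Of the 37 clock gene peaks, 4 had a value of 3 or more. Unstimulated replicate 1 stood apart, with 522 peaks on chromosome X against 16 to 19 in the other lists and 0 peaks on chromosome Y against 6 or 7, although all mice are labelled male. None of the 10 genes lies on a sex chromosome, and values without that list are given beside the comparisons. Of 8 skeletal muscle markers, 3, 6, 6 and 6 had a peak in unstimulated replicates 1 and 2 and stimulated replicates 1 and 2. Of 8 markers of other cell types (leukocytes, endothelium, fibroblasts, satellite cells and smooth muscle), 0, 5, 2 and 6 had a peak. In the same order, 14%, 39.3%, 19.9% and 52.5% of all protein-coding genes had one. The marker sets differ in median length, 16.2 kb for muscle and 96.4 kb for other cell types, so their counts cannot be set against each other. The part of other cells in the results was not tested.

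The sequences below show the promoters that a reader of the *Per1* and *Cry2* results will need: the upstream and downstream promoters of *Per1*, which differed in coverage, and the promoter of *Cry2*, which was covered in the same list. Each is 300 bases from RefSeq on GRCm38.p6, the build also called mm10, running from 250 bases before an annotated transcript start to 50 bases from it on, and written in the direction of the gene. Capitals mark the E-box CACGTG and the core TGACG of the cAMP response element, read on either strand. The core is also part of the full element TGACGTCA.
Per1 upstream promoter, chr11:69098699-69098998, + strand: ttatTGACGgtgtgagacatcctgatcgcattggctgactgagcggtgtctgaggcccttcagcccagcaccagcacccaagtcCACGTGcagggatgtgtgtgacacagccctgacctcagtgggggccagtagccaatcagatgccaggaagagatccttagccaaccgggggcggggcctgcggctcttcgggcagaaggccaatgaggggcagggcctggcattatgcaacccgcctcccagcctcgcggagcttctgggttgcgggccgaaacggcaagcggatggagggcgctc
Per1 downstream promoter, chr11:69099902-69100201, + strand: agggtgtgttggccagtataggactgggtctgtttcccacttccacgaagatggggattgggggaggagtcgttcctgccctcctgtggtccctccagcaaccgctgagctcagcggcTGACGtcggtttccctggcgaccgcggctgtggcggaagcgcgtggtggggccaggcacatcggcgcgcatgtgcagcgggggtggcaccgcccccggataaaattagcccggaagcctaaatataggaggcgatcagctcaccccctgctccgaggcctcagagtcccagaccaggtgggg
Cry2 promoter, chr2:92434020-92434319, - strand: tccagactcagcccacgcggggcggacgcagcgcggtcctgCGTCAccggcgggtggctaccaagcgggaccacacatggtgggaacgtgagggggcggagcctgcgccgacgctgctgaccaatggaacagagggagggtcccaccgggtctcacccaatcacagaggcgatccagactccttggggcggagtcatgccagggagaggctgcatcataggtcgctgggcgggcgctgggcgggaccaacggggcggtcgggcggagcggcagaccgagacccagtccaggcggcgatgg
The upstream *Per1* promoter held 1 E-box and 1 core of the cAMP response element. The downstream *Per1* promoter held 1 such core and no E-box, and the *Cry2* promoter held 1 core on the opposite strand. Among 32851 RefSeq promoters of the same length, 7.15% held an E-box and 20.8% held the core on either strand, while the full element TGACGTCA was in 1.79% and in none of these 3 sequences. A match is a description of the letters and not of a bound factor.

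*Per1*, the fast-responding arm of the loop, carried peaks in 3 of the 4 lists. Peaks covered 0% and 1.47% of its 14.744 kb (chr11:69095217-69109960, plus strand) in the unstimulated lists and 1.93% and 29.2% in the stimulated lists. The lower stimulated value exceeded the higher unstimulated one by 1 peak of 285 bp against 1 of 217 bp. The groups thus did not overlap but touched closely, and the share of all protein-coding genes that separate in this way was not counted. The means were 0.736% ± 1.04 (SD, n = 2) and 15.6% ± 19.3 (SD, n = 2), and the difference of 14.9 percentage points was carried almost wholly by stimulated replicate 2. A two-sided exact permutation test gave p = 0.333, which is the smallest that 2 samples against 2 can give, so no comparison here could pass 0.05. Without stimulated replicate 2 the difference was 1.20 percentage points, and without unstimulated replicate 1 it was 14.1. Read against all protein-coding genes, 13.2% were covered at least as much as *Per1* in unstimulated replicate 2, 3.54% in stimulated replicate 1 and 0.515% in stimulated replicate 2.

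The 5 *Per1* peaks lay at different places in the gene. In unstimulated replicate 2, a peak of 217 bp fell wholly inside coding exon 19 of 23 of the principal transcript. Stimulated replicate 1 had a peak of 285 bp in an intron, 500 bp further downstream, and no *Per1* peak overlapped one of another list. In stimulated replicate 2 there were 3 peaks, of 231, 2256 and 1824 bp. The shortest of them began 1077 bp from the annotated gene start, upstream of both RefSeq starts and of the principal transcript. The widest ran over exons 2 to 4 and the last over exons 11 to 17, and together the 3 peaks touched 10 of the 23 exons. The 2256 bp peak covered all 300 bp of the downstream promoter shown above, whereas the upstream promoter, with its E-box, was uncovered in every list and ended 36 bp before that peak began. The wide peak itself held 1 E-box and 2 cores of the cAMP response element. Among the 7 peaks of that list within 10 bp of its width, 42.9% held an E-box and 71.4% held the core.

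**Figure D1:**
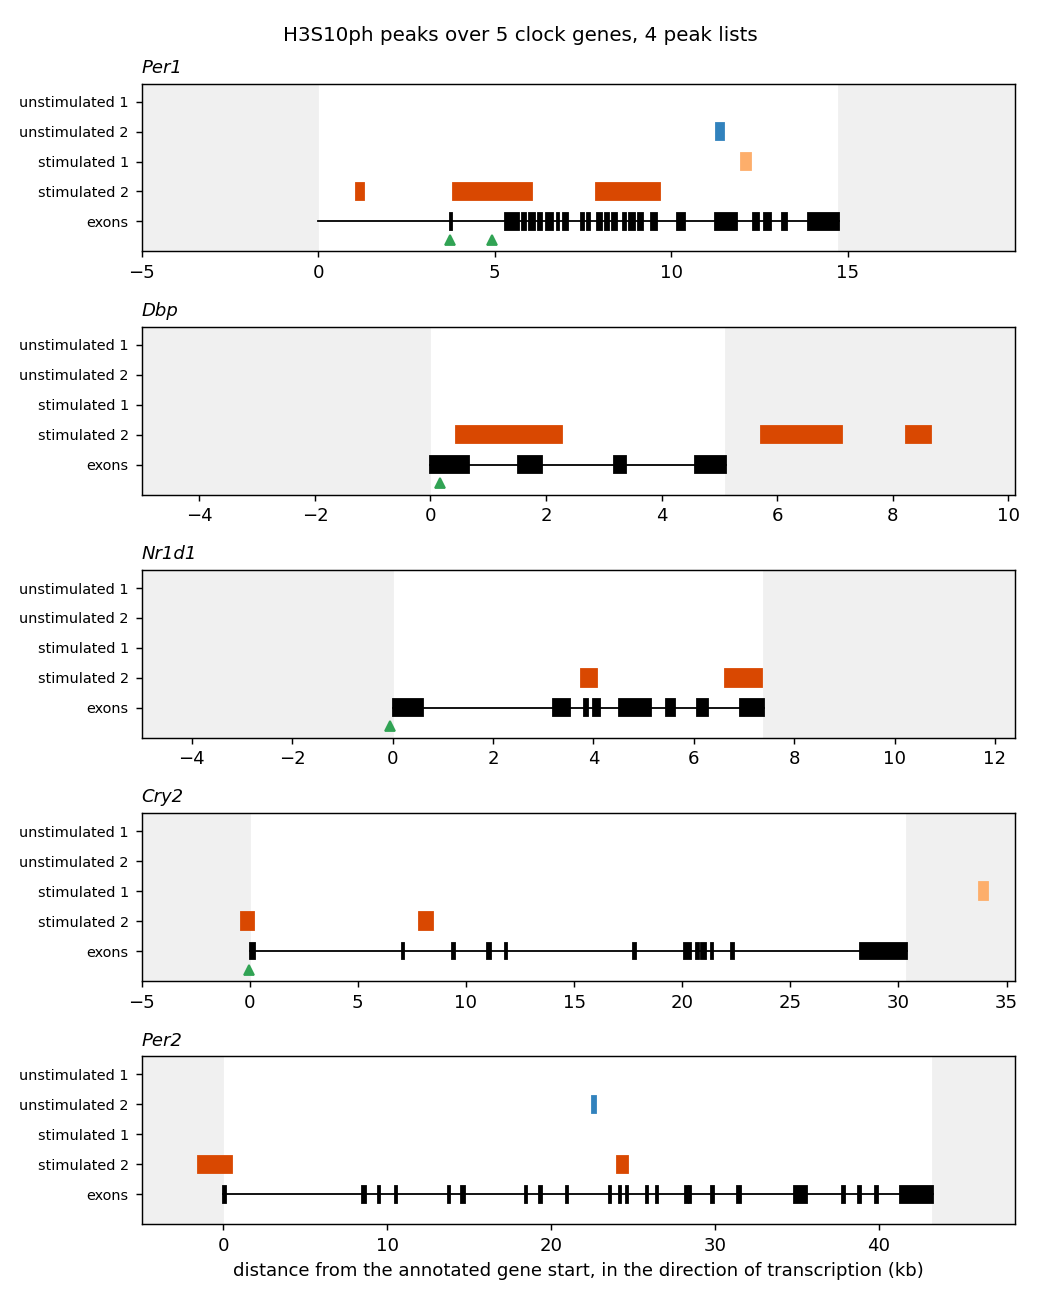
Maps of 5 clock genes, drawn in the direction of transcription with distance from the annotated gene start in kb on the horizontal axis; coloured boxes are H3S10ph peaks in the 4 lists, black boxes exons of the principal transcript, green triangles RefSeq transcript starts and grey bands the 5 kb flanks. The boxes of stimulated replicate 2 fill much of *Per1* and of the start of *Dbp*, while the other lists show at most 1 short box per gene.

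The 3 short *Per1* peaks are printed because they hold the call in unstimulated replicate 2 and stimulated replicate 1 and the strongest call in stimulated replicate 2. They are given on the plus strand of GRCm38.p6, with the same core of the cAMP response element in capitals where it occurs.
Per1 peak of unstimulated replicate 2, chr11:69106486-69106702, + strand: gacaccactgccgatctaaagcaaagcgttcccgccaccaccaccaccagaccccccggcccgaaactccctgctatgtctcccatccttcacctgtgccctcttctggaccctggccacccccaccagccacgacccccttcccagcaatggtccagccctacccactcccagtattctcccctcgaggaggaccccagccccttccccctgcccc
Per1 peak of stimulated replicate 1, chr11:69107203-69107487, + strand: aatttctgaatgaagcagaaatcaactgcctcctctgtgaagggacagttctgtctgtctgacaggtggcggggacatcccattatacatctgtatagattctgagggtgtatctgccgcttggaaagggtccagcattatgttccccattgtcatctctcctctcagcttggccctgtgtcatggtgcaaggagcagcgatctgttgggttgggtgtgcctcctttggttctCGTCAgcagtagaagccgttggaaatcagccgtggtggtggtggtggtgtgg
Per1 strongest peak of stimulated replicate 2, chr11:69096294-69096524, + strand: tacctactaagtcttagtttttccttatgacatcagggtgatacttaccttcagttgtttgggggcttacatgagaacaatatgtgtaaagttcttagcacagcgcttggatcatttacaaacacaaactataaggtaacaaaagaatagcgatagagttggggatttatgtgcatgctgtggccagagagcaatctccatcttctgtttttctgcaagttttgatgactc
The intronic peak of stimulated replicate 1 held 1 core of the cAMP response element, which 8.57% of the peaks of like width in that list held too. The other 2 held neither motif. Their base composition differed, with a GC content of 65.4% in the exonic peak of unstimulated replicate 2, 51.9% in the peak of stimulated replicate 1 and 39.0% in the strongest peak of stimulated replicate 2.

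By fold enrichment, the peak caller's value that ranks peaks within a list, the highest *Per1* peak was in stimulated replicate 2. Its 231 bp peak in stimulated replicate 2 had a fold of 2.57 and a −log10 p of 3.40, and ranked 431 of 40683, in the first 1.06% of that list. It was the only 1 of the 37 clock gene peaks with a q-value below 1, at a −log10 q of 0.0127, which is still close to 1. The wide peaks of the same list ranked 4684 and 7444, in the first 11.5% and 18.3%. In stimulated replicate 1 the *Per1* peak had a fold of 2.31 and ranked 4194 of 10901, or 38.5% down the list. In unstimulated replicate 2 its fold was 2.17 and its rank 8113 of 32740, or 24.8%. These percentages depend on the length of each list. By place in the full lists, 4194 in stimulated replicate 1 and 8113 in unstimulated replicate 2, the order of the 2 is the reverse of that of the percentages. When each list was restricted to a −log10 p of at least 2.5, *Per1* still had a peak in each stimulated list but in neither unstimulated one. These restricted lists held 5541 and 5416 unstimulated and 7151 and 7112 stimulated peaks, and the share of all genes with that pattern in them was not counted. In the full lists 3.85% of all protein-coding genes had the pattern, and *Per1* did not. With every list cut to its 9094 peaks of highest −log10 p, *Per1* kept its peak in unstimulated replicate 2. At a −log10 p of 3 or more *Per1* kept 1 peak, in stimulated replicate 2, where the covered share was then 1.57% in place of 29.2%.

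Set against the other 9 clock genes within each list, *Per1* was covered more in 3 lists. Its share less the mean of the others was −0.31 and 0.906 percentage points in the unstimulated lists and 1.85 and 22.6 in the stimulated lists. The groups did not overlap, with means of 0.299 ± 0.859 (SD, n = 2) and 12.2 ± 14.7 (SD, n = 2). How many other genes would separate in this way was not counted. An exact permutation test gave p = 0.333 for the difference of 11.9, which was 11.3 without unstimulated replicate 1 and 1.55 without stimulated replicate 2. *Per1* took place 3 of 10 in unstimulated replicate 2, behind *Arntl* and *Per3*. It took place 1 in stimulated replicate 1, where only *Per3* of the others had any covered share, and place 2, behind *Dbp*, in stimulated replicate 2. A covered share depends on gene length, which is 14.7 kb for *Per1* and 41.0 kb for *Per3*. In stimulated replicate 1, *Per3* had more covered bases than *Per1* (299 against 285 bp). Its peak also ranked higher in that list (2675 against 4194). Over the 4 values of covered share, the 5 protein-coding genes nearest to *Per1* by Euclidean distance were *Isg15*, *Flnc*, *Mpst*, *A830005F24Rik* and *Reg3d*, at 2.43 to 2.44 percentage points. Each of them was covered in stimulated replicate 2 only, so none shared the small peaks of *Per1* in the other lists.

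**Figure D2:**
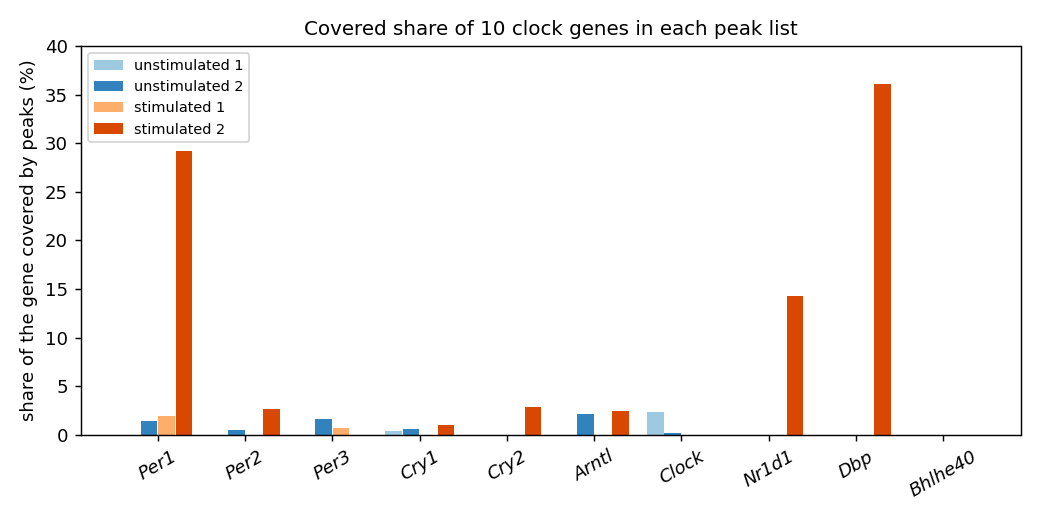
Bars give the share of each gene, in percent, that peaks covered in the 4 lists, with 1 bar per list and no averaging. *Dbp*, *Per1* and *Nr1d1* reach 36.1%, 29.2% and 14.3% in stimulated replicate 2, and every other bar is below 3%.

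The other *Period* genes were covered less. *Per2* (chr1:91415982-91459324, minus strand) is the partner repressor that keeps time in the loop, and peaks covered 0% and 0.515% of it in the unstimulated lists and 0% and 2.71% in the stimulated lists. The groups overlapped, since each had 1 list without a peak. In stimulated replicate 2, a *Per2* peak of 2050 bp ran from 1545 bp before the gene start to 504 bp into the gene, over exon 1, and ranked at 21.8% of its list. It held 4 cores of the cAMP response element and 1 D-box (TTATGTAA), and 54.5% of the 11 peaks of like width in that list held at least 1 such core. *Per3* (chr4:151003652-151044665, minus strand), the least essential of the 3 for rhythm, was covered over 0% and 1.63% in the unstimulated and 0.729% and 0% in the stimulated lists. All 3 *Per3* peaks lay inside the long gene *Camta1* as well, and cannot be given to one gene or the other. In stimulated replicate 2 the *Per3* peak was 685 to 1294 bp before the gene start, and it left the gene itself uncovered.

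Of the cryptochromes, which block the activating pair directly, *Cry1* (chr10:85131700-85185064, minus strand) had calls in 3 lists. Peaks covered 0.444% and 0.5996% of it in the unstimulated lists and 0% and 0.997% in the stimulated lists, with overlapping groups. Its best peaks ranked high in their lists, at 11.6% and 1.84% of the unstimulated lists and 1.24% of stimulated replicate 2, and each had a −log10 p above 3. The places differed, at 28.4, 51.0 and 14.2 kb from the gene start, and none of these 3 peaks touched an exon. *Cry1* was the only clock gene with a peak of a −log10 p of at least 3 in an unstimulated list, and it had one in both.

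*Cry2* (chr2:92403646-92434043, minus strand) was the only one of the 10 clock genes that was called in both lists of stimulated muscle but in no list of unstimulated muscle. The call in stimulated replicate 1 was a peak of 418 bp that lay 3328 bp past the end of the gene, inside the neighbouring gene *Mapk8ip1*, and ranked at 66.96% of its list. In stimulated replicate 2 a peak of 621 bp spanned the gene start, from 398 bp before it to 222 bp into it. It covered most of exon 1 (223 bp) and the whole promoter shown above. A further peak of 651 bp, 7.8 kb into the gene, ranked at 3.16% with a −log10 p of 2.99. Peaks covered 0% and 2.88% of *Cry2* itself in the stimulated lists. With the flanks left out, none of the 10 clock genes therefore had this pattern. The pattern was held by 3.85% of all protein-coding genes, against which 1 of 10 is not a result about clock genes.

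The genes of the activating pair differed in their calls. *Arntl* (chr7:113207465-113314126, plus strand) was covered over 0% and 2.12% in the unstimulated lists and 0% and 2.51% in the stimulated lists, by 3 and 5 peaks in the replicates numbered 2. One of them, of 933 bp at chr7:113240472-113241404 in unstimulated replicate 2, overlapped a peak of 273 bp in stimulated replicate 2, and these were the only clock gene peaks that overlapped between lists. *Clock* (chr5:76209868-76304792, minus strand) had the reverse order to *Per1*, with 2.34% and 0.225% covered in the unstimulated lists and 0% in both stimulated lists. The groups did not overlap, and an exact permutation test gave p = 0.333 for the difference of −1.28 percentage points. Its 4 peaks in unstimulated replicate 1 ranked between 53.0% and 94.7% of that list and had a GC content of 26.9% to 40.2%, in the list that stands apart by its X and Y peaks. Without that list the unstimulated value rests on 1 peak of 214 bp. Peaks in both unstimulated lists and no stimulated list were found for 0.866% of all protein-coding genes.

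Among the repressor *Nr1d1*, the output gene *Dbp* and *Bhlhe40*, calls came from stimulated replicate 2 alone. *Dbp* (chr7:45705088-45710203, plus strand) was covered over 0%, 0%, 0% and 36.1%, the highest share of any clock gene, and 0.346% of all protein-coding genes were covered at least as much in that list. A peak of 1845 bp, at 9.11% of the list, began 434 bp into *Dbp* and ran over exons 1 and 2. The other 2 peaks in its window lay past the end of the gene, inside *Sphk2*. *Nr1d1* (chr11:98767932-98775333, minus strand) was covered over 0%, 0%, 0% and 14.3%. Of its 2 peaks, that over exons 3 and 4 ranked at 9.55%, and that over the last exon also overlapped *Thra*, which lies on the opposite strand, so ChIP cannot tell which gene it belongs to. *Bhlhe40* (chr6:108660629-108666925, plus strand) had no peak in any list.

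**Figure D3:**
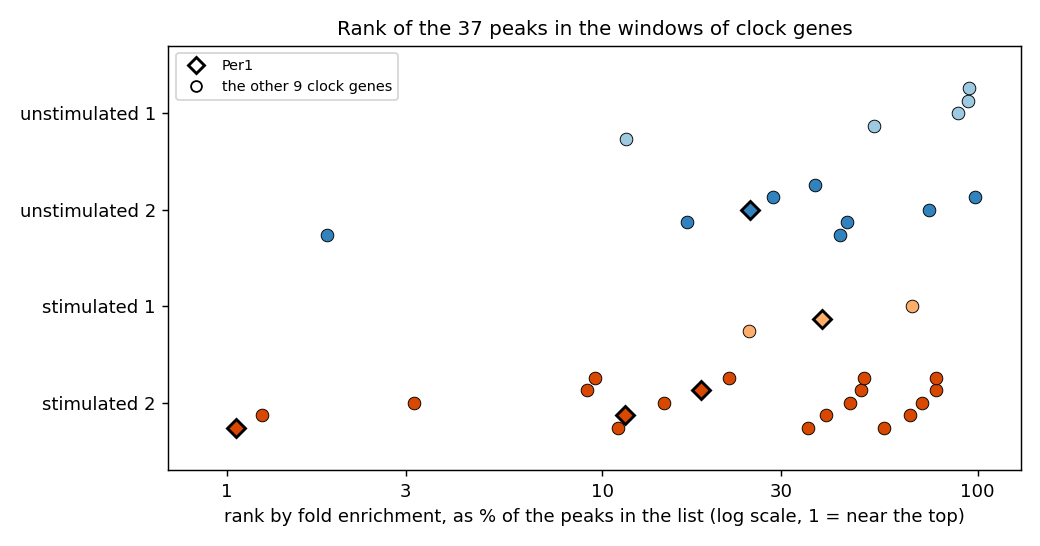
Each point is 1 of the 37 peaks in the clock gene windows, placed by its rank by fold enrichment in percent of the peaks of its list, on a log axis with the top of the list at the left; the lists differ in length, so positions are read within a list, and diamonds are *Per1* peaks. The leftmost points are peaks of *Per1* at 1.06% and *Cry1* at 1.24% in stimulated replicate 2 and of *Cry1* at 1.84% in unstimulated replicate 2.

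Counted over all 10 genes, 2 and 6 had a peak in the unstimulated lists and 3 and 8 in the stimulated lists. In the same order, 14%, 39.3%, 19.9% and 52.5% of all protein-coding genes had one. The clock genes are longer than most, with a median of 35.7 kb against 17.4 kb, and among genes within their range of length the shares were 11.2%, 38.8%, 17.6% and 54.3%. In each list the clock genes were above those shares, and the excess came to at most 3 genes. The mean was 4 ± 2.83 (SD, n = 2) genes in the unstimulated and 5.5 ± 3.54 in the stimulated lists, and the difference of 1.5 was smaller than the spread within either condition (exact permutation p = 0.667). It was −0.5 without unstimulated replicate 1 and −1 without stimulated replicate 2. Both stimulated lists held a peak for *Per1*, *Per3* and *Cry2*, or 3 of 10 genes against 15.3% of all genes, and both unstimulated lists held one for *Cry1* and *Clock*, or 2 of 10 against 9.11%.

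**Figure D4:**
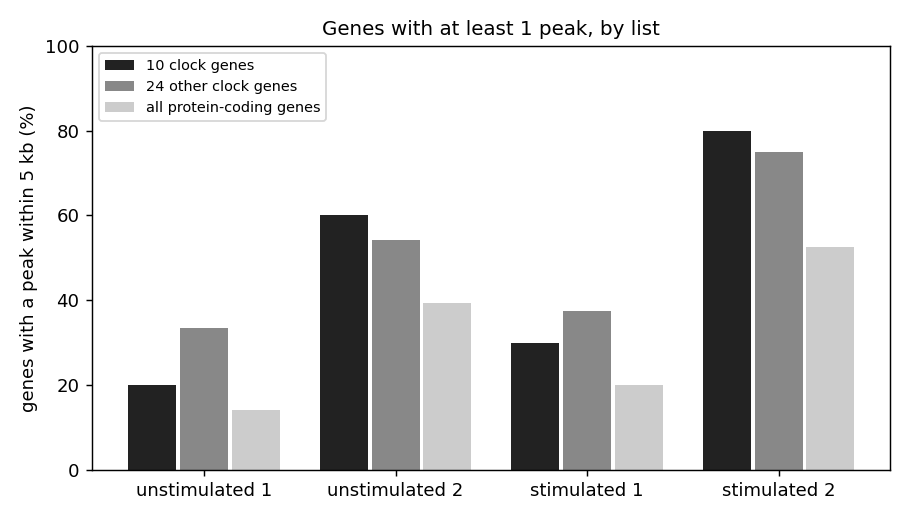
Bars give the percentage of genes with at least 1 peak in the gene or within 5 kb of it in each list, for the 10 clock genes, 24 other clock genes and all protein-coding genes. The bars follow the length of the lists, which held 9094, 32740, 10901 and 40683 peaks, with 2, 6, 3 and 8 of the 10 clock genes.

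The covered length of the 10 windows together was 2.456 and 4.415 kb in the unstimulated lists and 1.002 and 16.864 kb in the stimulated lists. The lowest and the highest values both came from stimulated muscle, and the ratio of the means, 2.60, had an exact permutation p of 1. The ratio was 2.02 without unstimulated replicate 1 and 0.292 without stimulated replicate 2. As a share of the windows these lengths were 0.488%, 0.877%, 0.199% and 3.35%, against 0.192%, 0.730%, 0.2602% and 1.31% for the windows of all protein-coding genes. Stimulated replicate 1 was therefore the one list in which clock genes were covered less than genes at large. Stimulated replicate 2 had the highest median width of the 4 lists, and 4 of its 20 clock gene peaks, in *Per1*, *Per2* and *Dbp*, were wider than 1500 bp, compared with 2.497% of all its peaks.

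Peaks near gene starts were likewise called in stimulated replicate 2 only. Within 1 kb of the annotated start, 0, 0, 0 and 4 of the 10 genes had a peak, the 4 being *Per2*, *Per3*, *Cry2* and *Dbp*. The shares of all protein-coding genes were 0.392%, 2.53%, 1.41% and 9.18%. RefSeq promoters were given for 8 of the 10 genes, *Per2* and *Bhlhe40* being the exceptions, and 0, 0, 0 and 2 of the 8 were overlapped (*Per1* and *Cry2*), against 0.0787%, 0.968%, 0.545% and 3.54% of genes with such a promoter. The *Per3* promoter, with 2 D-boxes, and the *Cry1* promoter, with 1 E-box and 1 core of the cAMP response element, were uncovered in every list. An E-box lay in 0 of 5, 1 of 9, 0 of 3 and 5 of 20 clock gene peaks, compared with 3.61%, 5.57%, 5.37% and 6.67% of all peaks of the lists. The clock gene peaks of stimulated replicate 2 had a median GC content of 53.9% against 44.5% over all its peaks, and were longer (median 636 bp against 457 bp), so the part of length and composition in the E-box count was not tested.

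In the wider clock network the counts again followed the length of the lists. Of 24 further genes that make or regulate clock proteins, 8 and 13 had a peak in the unstimulated lists and 9 and 18 in the stimulated lists, with means of 10.5 ± 3.54 and 13.5 ± 6.36 (SD, n = 2 each) and an exact permutation p of 0.667. The shares of all protein-coding genes, in the same order, were the 14%, 39.3%, 19.9% and 52.5% given above. The 24 genes are longer than most, with a median of 34.4 kb against 17.4 kb. *Rora* alone spans 734 kb and had 34 peaks in stimulated replicate 2. The part of gene length in the counts of this paragraph was not tested. The difference of 3 genes was 0.5 without unstimulated replicate 1 and −1.5 without stimulated replicate 2. Both stimulated lists held a peak for *Nr1d2* (REV-ERBβ), *Rora* (the activator of *Arntl*), *Csnk1e* (a kinase of PER proteins), *Btrc*, *Gsk3b* and *Prkaa2*, or 6 of 24 against 15.3% of all genes. Both unstimulated lists held one for *Rora*, *Rorb*, *Tef*, *Csnk1d*, *Gsk3b* and *Sirt1*, or 6 of 24 against 9.11%. Of these, *Csnk1e* was called in both stimulated lists only and *Tef*, a relative of *Dbp*, in both unstimulated lists only, patterns that 3.85% and 0.866% of all genes had. At *Tef* the 2 peaks overlapped, at chr15:81818424-81819272 and chr15:81818509-81818738. Across the 24 genes, 8 of 144 peaks overlapped a peak of another list, and 4 had a −log10 p of at least 3, the strongest of them in *Rora* in stimulated replicate 2 at rank 132.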

How the data were processed

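H3S10ph ChIP-seq peak lists of 4 samples were analysed. According to the methods, the authors mapped reads to mm10 and down-sampled replicates after discarding multi-mapping reads (bamtools 2.4.0). They called broad peaks per sample against input with MACS2 2.1.1, at a stated p of 0.001. The peaks of the lists have −log10 p values down to near 2, and how the value of a broad peak relates to that cutoff was not tested. The deposited values of a peak are a fold enrichment (a ratio to local background) and −log10 p-values and q-values. Both are values within 1 list, so conditions were compared by overlap with genes, and fold was used only to rank or filter peaks within a list. Counts and coverage are not given, so depth and counting intervals are unknown.

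Genes and exons were those of GENCODE release M21, and promoters those of RefSeq (GRCm38.p6). Covered length is the union of the peaks of a list over a gene. Conditions were compared over samples by two-sided exact permutation tests (Python 3.11.15, scipy 1.17.1, numpy 2.4.6, pandas 2.3.3, pysam 0.24.0, matplotlib 3.10.9), and the coverage code was tested on simulated data. The text names the 10 clock genes, other clock genes called in both lists of a condition, genes under a clock gene's peaks and the 5 genes nearest to *Per1*. Members, lists and tests were chosen with earlier results of these data known. The paper states that the contralateral muscles came from the same mice as the stimulated ones. Nothing in the labels says which mice made up each pool, so the permutation tests were unpaired. Their p-values place the observed split of these pooled samples among all possible splits, and do not measure the spread between mice.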

Additional observations from a re-analysis of the deposited data

How the results depend on the processing

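Of 69 alternative values for the clock gene results, 57 counted as kept. Some of these could not move: differences between samples of the same replicate number average to the main difference by arithmetic. Merging peaks within 1000 bp, or asking for at least 50% of a peak inside the window, left every value unchanged. The count of kept values is therefore not a measure of robustness. A difference or ratio was kept when its direction stayed the same, whatever its size. The count of genes called in both stimulated lists only, and the ranks, were kept when they stayed within 1.5 times. No p-value entered this rule. Between conditions, the difference in the covered share of *Per1* and in its excess over the other clock genes kept direction under every alternative run. The difference in the excess was 7.04 percentage points at a −log10 p of at least 2.5, 0.817 at 3 or more, and 1.55 to 22.3 with each sample left out. The difference in the covered share was 9.40, 0.783, and 1.20 to 28.5. The excess itself was below 0 in both unstimulated lists at 2.5 (−0.087 and −0.067) and at 3 (−0.049 and −0.067). In stimulated replicate 1 it was 1.85 at 2.5 and 0 at 3, and in stimulated replicate 2 it was 12.1 and 1.52. The rank of the best *Per1* peak by −log10 p was 4465 and 396 in the stimulated lists.

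Keeping only peaks with −log10 p of 3 or more, the difference in clock genes with a peak was 0 and that in other clock genes 0. The ratio of covered lengths was then 0.837 (8.99 at 2.5 or more). The number of the 10 clock genes called in both stimulated lists only was 0. That last count was also 0 without flanks, and 2 with 10 kb on each side. With each sample left out, the difference in clock genes ranged from −1 to 4 (−0.5 when unstimulated replicate 1 was dropped), that ratio from 0.292 to 4.91, the difference in other clock genes from −1.5 to 7.5, and the count called in both stimulated lists only from 1 to 3. Leaving out stimulated replicate 2 gave the lowest of the first 3 ranges; the cause was not tested. Cutting every list to its 9094 highest peaks left 2 and 3 clock genes with a peak in the unstimulated and 3 and 7 in the stimulated lists.

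With the replicate block, which compares samples of the same number, the ratio of covered lengths was 1.25. The differences were 1.5 clock genes, 3 other clock genes, 14.9 percentage points for *Per1* and 11.9 for its excess. These differences equal the main ones by arithmetic. Whether the numbers pair the samples is not given in the labels, and over 21938 genes the replicate differences of the conditions had a correlation of 0.036. The number of samples and the unknown depth limit all comparisons.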
